A study of Rattus norvegicus with 31 samples.

Results

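The Slc25 family of mitochondrial solute carriers was described across the liver, the white fat (WAT, for white adipose tissue) and the brown fat (BAT) of rats fed diets that differed in carbohydrate and fat. Members were all genes whose symbol starts with Slc25a and which had at least 1 probe set annotated to that gene alone, a probe set being the group of short probes that reads 1 transcript on the array. There were 40 such genes, read by 58 probe sets, of 14217 genes and 31042 probe sets in all. Where a gene had several probe sets (12 genes), the brightest by its mean over the arrays of a tissue stood for it. 2 further probe sets carried an Slc25a symbol with several gene identifiers and were left out.

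Male Wistar rats, an outbred stock, arrived at 3 weeks of age and were given chow for a week. They then ate 1 of 3 diets freely for a week and stayed on it for 9 more weeks. Tissue was taken after a fast of 17 h. Carbohydrate and fat supplied 65% and 15% of energy in the L-group, which ate freely. They supplied 60% and 20% in the M-group and 35% and 45% in the H-group. Over the 9 weeks both groups were fed the same energy as the L-group. The added fat was mainly soybean oil, with lard in all 3 diets. Liver came from 5 L rats (L1 to L5), 4 M rats (M6, M8, M9 and M10) and 4 H rats (H12, H13, H15 and H16), and WAT and BAT from the same L and H rats, 31 arrays in all. Each value was 1 array of whole tissue from 1 rat, and no genotype or drug differed between groups.

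Slc25 carriers sit in the inner mitochondrial membrane and move metabolites between the matrix and the cytosol, mostly by exchanging one solute for another. The adenine nucleotide and phosphate carriers feed ATP synthase and release its product. The citrate and dicarboxylate carriers take tricarboxylic acid cycle intermediates out to the cytosol, where citrate is cleaved to acetyl-CoA for fatty acid synthesis. Uncoupling proteins, which let protons back into the matrix as heat in BAT, belong to the same family under other names.

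The deposited log2 values were normalised per tissue with a different method in each, so a level was set only against other rats of the same tissue and the same probe set. All 40 genes varied between arrays in liver. In WAT, 29 genes held 1 constant value on every array after the authors' summarisation, which leaves 11 genes. In BAT, 6 genes were at the floor of the scale or constant, which leaves 34. The same criterion left 3308 of 14217 genes in WAT and 9785 in BAT. Some of the 34 passed on 1 array just above the floor of 2.29. *Slc25a13* read 2.48 in L4, and *Slc25a18*, *Slc25a27* and *Slc25a31* read 2.41, 2.43 and 2.47 in H16. On their other arrays these genes read 2.29 to 2.31, and the BAT counts and medians include them. Tissue labels were checked with marker genes. The mean of 5 hepatocyte markers was 13.6 to 13.7 on the log2 scale in every liver. Adiponectin (*Adipoq*) was 13.20 to 13.39 in every WAT array. It was also 13.06 to 13.80 in BAT, so it does not tell WAT from BAT. *Ucp1*, the heat-producing protein of brown fat, was 14.44 to 14.89 in every BAT array. Of the other brown adipocyte markers, *Cidea* and *Cox8b* were also high in BAT, at 14.50 to 14.79 and 13.54 to 14.36. *Elovl3* was at the floor there and *Cox7a1* read 2.98 to 3.57. *Ucp1* was constant in WAT, but so were the adipocyte genes *Fabp4*, *Plin1* and *Cidec*, so a constant value does not show absence. Albumin was also read at 12.62 to 13.36 in BAT and at 7.83 to 12.71 in WAT, where its range covered both diets.

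From L to H, 39 of 40 Slc25 genes in liver, 11 of 11 in WAT and 31 of 34 in BAT differed by less than 0.5 on the log2 scale. The same share over all genes was not counted, and the BAT genes near the floor are among the 31. The median SD between rats of one diet was 0.140 for Slc25 genes and 0.115 for all genes in liver. For genes with varying signal it was 0.147 and 0.157 in WAT, and 0.203 and 0.164 in BAT. The genes that passed the test were few and mostly lower in the H-group. *Slc25a30* fell in liver, *Slc25a1* fell in WAT and BAT and *Slc25a10* fell in BAT, and these calls held with each rat left out in turn. The remaining 4 calls did not. *Slc25a30* was called lower in WAT and in BAT, where it went from -0.78 to -0.26 on the log2 scale without rat H16, *Slc25a25* was called lower in WAT, and *Slc25a34* was called higher in BAT on widely spread values. The test was the rank products method that the study used. Within each pair of arrays from 2 diets, it ranks all probe sets by their difference, and it combines these ranks over the pairs. The method calls a gene, higher and lower separately, at an estimated false discovery rate under 0.05 over 100 permutations. It takes no account of a gene's own spread, so the moderated linear model of limma is given beside it, with Benjamini-Hochberg adjusted p over all probe sets. The SD between rats of one diet lay above that of 97.9% of all genes for *Slc25a30* in liver and above that of 73.5% in WAT and 98.9% in BAT. In BAT it lay above that of 99.9% of genes for *Slc25a34*, 90.1% for *Slc25a1* and 87.4% for *Slc25a10*. In WAT it lay above that of 48.5% for *Slc25a25* and 47.2% for *Slc25a1*. No Slc25 gene passed an adjusted p of 0.05 by limma in any of the 5 diet comparisons. At an unadjusted p under 0.05, limma gave 1 of 40 genes from L to M, 6 from M to H and 8 from L to H in liver, where the shares of all genes were 3.69%, 6.39% and 9.24%. It gave 1 of 11 in WAT and 7 of 34 in BAT, where the shares were 7.8% and 9.52%. At an unadjusted p under 0.01 it gave 0, 2 and 3 genes in the 3 liver comparisons, 1 in WAT and 3 in BAT, where the shares were 0.528%, 1.46%, 2.41%, 2.42% and 2.95%.

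Against the background of all genes, these counts were as follows. In liver, rank products called 0 of 40 Slc25 genes from L to M, where it called 0.478% of all genes. It called 1 from M to H and 1 from L to H, where it called 0.943% and 1.67% of all genes. In WAT it called 3 of 11, and 10.1% of all genes with varying signal. In BAT it called 4 of 34, and 3.88% of all genes with varying signal. By limma, 0.00703% of genes passed from L to M, 0.0141% from M to H and 0.0492% from L to H in liver. The limma share was 0% in WAT and 0% in BAT, where 258 of 3308 and 932 of 9785 genes had an unadjusted p under 0.05.

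A second reading was whether any rat of one diet overlapped any rat of the other. Slc25 genes without overlap numbered 1 from L to M, 3 from M to H and 4 from L to H in liver, where the shares over all genes were 0.95%, 3.14% and 3.44%. They numbered 1 of 11 in WAT and 4 of 34 in BAT, where the shares were 2.9% and 3.56%. The median Slc25 log2 fold change from L to H was 0.03 in liver, -0.02 in WAT and 0.03 in BAT, against 0.00, 0.02 and 0.01 for all genes. In WAT, 9 of 11 Slc25 genes were lower in the H-group mean, while 61.7% of all genes with varying signal were higher.

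**Figure D1:**
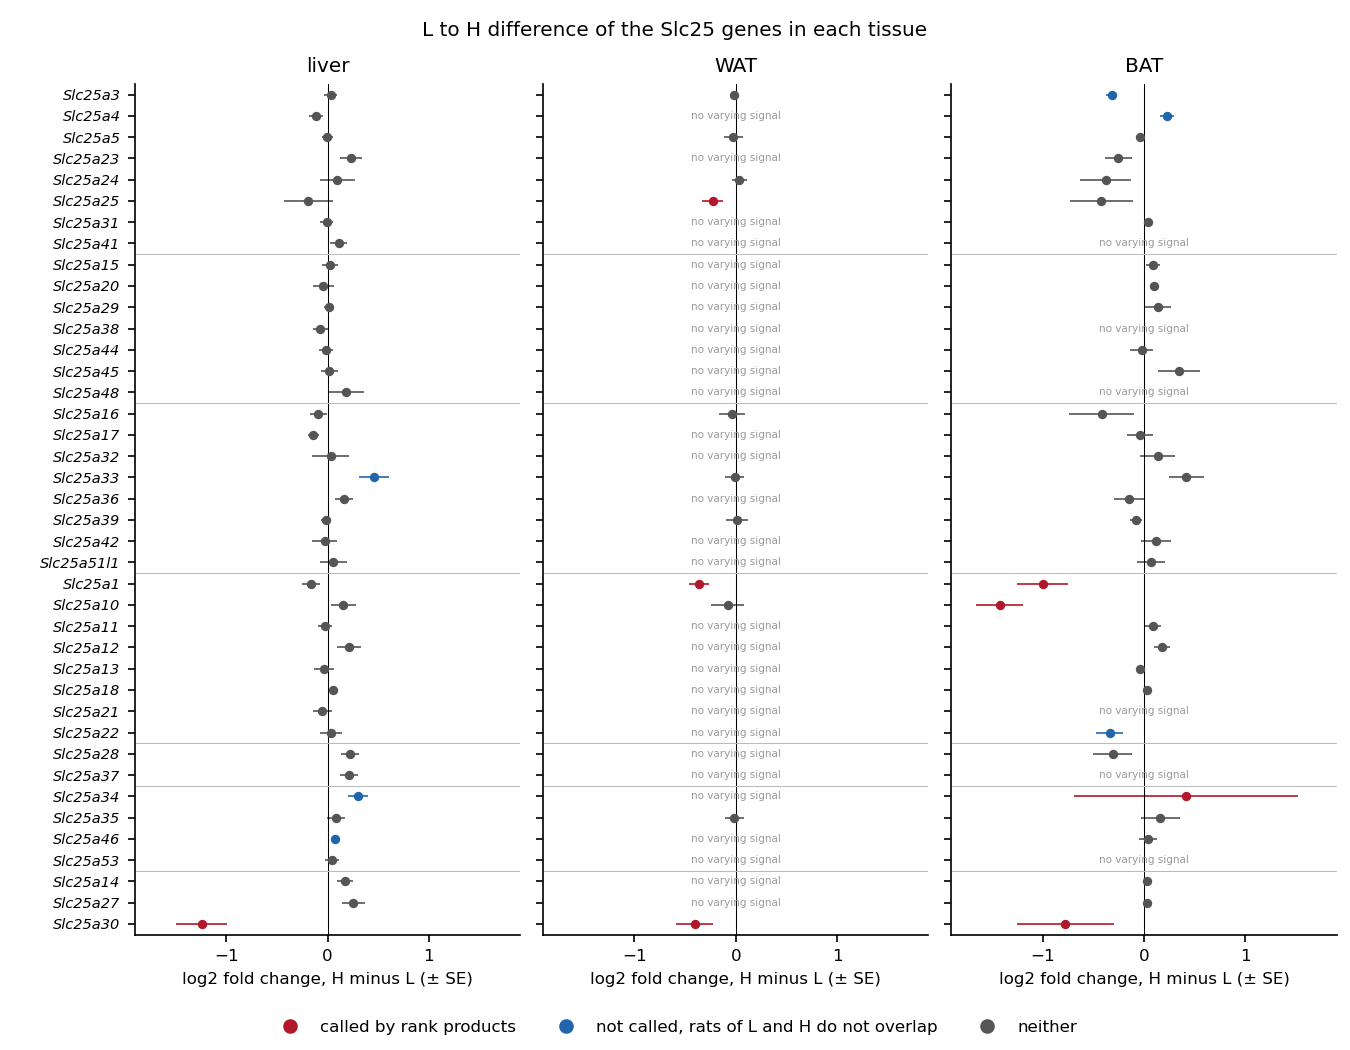
Log2 fold change from L to H with its limma standard error (x axis) for the 40 Slc25 genes (y axis, grouped by substrate) in liver, WAT and BAT. Red dots are genes called by rank products, blue dots are genes not called whose L and H rats did not overlap, and grey text marks genes without varying signal. Most dots lie near 0, and the red dots at -1.24 (*Slc25a30*, liver) and -1.42 (*Slc25a10*, BAT) lie farthest from it.

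The carriers of di- and tricarboxylates, aspartate and glutamate numbered 8, all measured in liver, 2 in WAT and 7 in BAT. *Slc25a1* encodes the citrate carrier, which exports mitochondrial citrate. *Slc25a10* encodes the dicarboxylate carrier, which exchanges malate and succinate for phosphate. Rank products called 0 of 8 in liver, 1 of 2 in WAT and 2 of 7 in BAT, all lower in the H-group. The shares of all genes with varying signal called from L to H were 1.67%, 10.1% and 3.88%.

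The 250 bases before the start of both genes are shown because both fell in BAT. They are RefSeq sequences of assembly GRCr8, printed in the direction of the gene. Both lie on the plus strand, *Slc25a1* at chr11:96559804-96560053 and *Slc25a10* at chr10:106264146-106264395. Capitals mark GGGCGG, the GC box, and CCAAT, the CCAAT box, on either strand.
Slc25a1: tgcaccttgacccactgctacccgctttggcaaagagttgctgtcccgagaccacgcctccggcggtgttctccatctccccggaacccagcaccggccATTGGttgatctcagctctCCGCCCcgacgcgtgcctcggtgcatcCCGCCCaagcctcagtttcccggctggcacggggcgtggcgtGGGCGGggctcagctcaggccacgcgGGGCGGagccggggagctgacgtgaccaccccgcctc
Slc25a10: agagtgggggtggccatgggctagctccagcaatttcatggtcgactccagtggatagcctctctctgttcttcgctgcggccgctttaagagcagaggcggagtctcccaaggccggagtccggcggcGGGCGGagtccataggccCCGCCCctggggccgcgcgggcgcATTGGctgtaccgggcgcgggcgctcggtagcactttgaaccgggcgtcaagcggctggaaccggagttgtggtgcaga
The *Slc25a1* window held 4 GC boxes and 1 CCAAT box, the *Slc25a10* window held 2 and 1, and no match overlapped another. Over all 27457 promoters, 1 per gene symbol, 32.4% held a GC box and 34.3% a CCAAT box. Of the 34 Slc25 promoters in the table, 21 held a GC box (61.8%) and 19 a CCAAT box (55.9%). CACGTG, the E box, was in 2 of the 34 (5.88%) and in 5.79% of all, and TATAAA, the TATA box, in 2 (5.88%) and in 13.1% of all. Neither of these was in the windows printed. These are letter matches and not sites shown to be bound.

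In BAT, *Slc25a10* read 7.78, 8.25, 7.78, 8.59 and 7.84 in L1 to L5, and 7.01, 6.26, 6.45 and 6.79 in H12, H13, H15 and H16. The diets did not overlap, with all H rats below the lowest L rat. The means were 8.05 ± 0.36 (SD, n = 5) and 6.63 ± 0.34 (SD, n = 4), a log2 fold change of -1.42 (SE 0.23), or 2.68-fold lower. It fell by rank products, with an estimated false discovery rate of 0, and its limma adjusted p was 0.402. A second *Slc25a10* probe set was also called lower, at -0.91 (SE 0.37). The call held with each rat left out in turn.

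In WAT, *Slc25a10* read 9.37, 9.43, 9.29, 9.17 and 9.43 in the L rats and 9.42, 9.11, 8.85 and 9.65 in the H rats. H15 was the lowest and H16 the highest of all 9, so the H values enclosed the L values. The log2 fold change was -0.08 (SE 0.16), not called. In liver the L mean was 7.87 ± 0.13 (SD, n = 5), the M mean 7.96 ± 0.32 (SD, n = 4) and the H mean 8.02 ± 0.14 (SD, n = 4). The 3 diets overlapped, and the L to H log2 fold change was 0.16 (SE 0.13).

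The L to H difference of *Slc25a10* differed between liver and BAT in the test without the rat as a block, and did not pass with it. The BAT difference minus the liver difference was -1.58 (SE 0.24) on the log2 scale, with a limma adjusted p of 0.0120. With the rat as a block, which uses that each rat gave both tissues, the adjusted p was 0.0755. It was the only Slc25 gene past 0.05 among those with varying signal in both tissues, where 0.332% of all such genes passed. Not counted for want of such signal were *Slc25a13*, *Slc25a21*, *Slc25a27*, *Slc25a37*, *Slc25a38*, *Slc25a41*, *Slc25a48* and *Slc25a53*. At an unadjusted p under 0.01 there were 4 Slc25 genes and 4.71% of genes. For liver against WAT and for WAT against BAT, at most the 11 Slc25 genes that varied in WAT could be counted. Of these, 0 passed by limma, and 0.152% and 0.0339% of genes did. In the same 2 comparisons, 1 and 2 Slc25 genes had an unadjusted p under 0.01, as did 3.11% and 3.5% of genes. Liver and BAT values came from different normalisation methods, which stretch fold changes of low signals differently.

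*Slc25a1* in BAT read 11.31, 11.34, 11.06, 11.58 and 11.22 in the L rats and 11.07, 10.32, 9.86 and 9.97 in the H rats. 3 H rats lay below all L rats, and H12 was level with the lowest, L3. The log2 fold change was -0.998 (SE 0.253), or 1.997-fold lower, called by rank products with a limma adjusted p of 0.652. In WAT it read 9.91, 10.03, 9.95, 10.08 and 9.89 in the L rats and 9.84, 9.50, 9.38 and 9.71 in the H rats, without overlap. That difference was -0.36 (SE 0.10), or 1.29-fold lower, also called, with a limma adjusted p of 0.623. Both calls held with each rat left out in turn. In liver the L to H log2 fold change was -0.16 (SE 0.09) and the diets overlapped.

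*Slc25a22*, a glutamate carrier, was lower in BAT of all H rats without being called. It read 9.54 to 9.92 in the L rats and 8.97 to 9.53 in the H rats, so the groups all but touched, with a log2 fold change of -0.34 (SE 0.14). H16 was the lowest, and without it the value was -0.21. In liver it read 8.32 to 8.80 in L, 8.21 to 8.59 in M and 8.45 to 8.71 in H. It held a constant value in WAT. *Slc25a12*, an aspartate and glutamate exchanger, had the smallest limma p of the group in liver from L to H, at 6.26 ± 0.17 (SD, n = 5) in L and 6.47 ± 0.25 (SD, n = 4) in H, a difference of 0.21 (SE 0.12) that was not called and was 0.13 without H12. The remaining carriers of this group, *Slc25a11*, *Slc25a13*, *Slc25a18* and *Slc25a21*, were not called in any comparison.

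The enzymes around the citrate carrier were set beside it from a list of 5, *Cs* (citrate synthase), *Acly* (which cleaves cytosolic citrate), *Acaca* and *Fasn* (which build fatty acids from its acetyl-CoA) and *Me1* (malic enzyme). Rank products called 4 of 5 lower in WAT and 4 of 5 lower in BAT, *Acly*, *Acaca*, *Fasn* and *Me1* in each, and 0 of 5 in liver. From L to H it called 10.1%, 3.88% and 1.67% of all genes with varying signal in these tissues, in either direction. In WAT the 2 with the smallest limma p were *Fasn*, at -1.15 (SE 0.26), and *Acaca*, at -1.28 (SE 0.32). In BAT they were *Me1*, at -1.38 (SE 0.26), and *Acly*, at -0.73 (SE 0.17). In liver *Acly* was 0.25 (SE 0.09) higher and *Acaca* 0.23 lower on the log2 scale, a log2 fold change of -0.23 (SE 0.09), and neither was called. *Cs* was not called in any tissue.

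**Figure D2:**
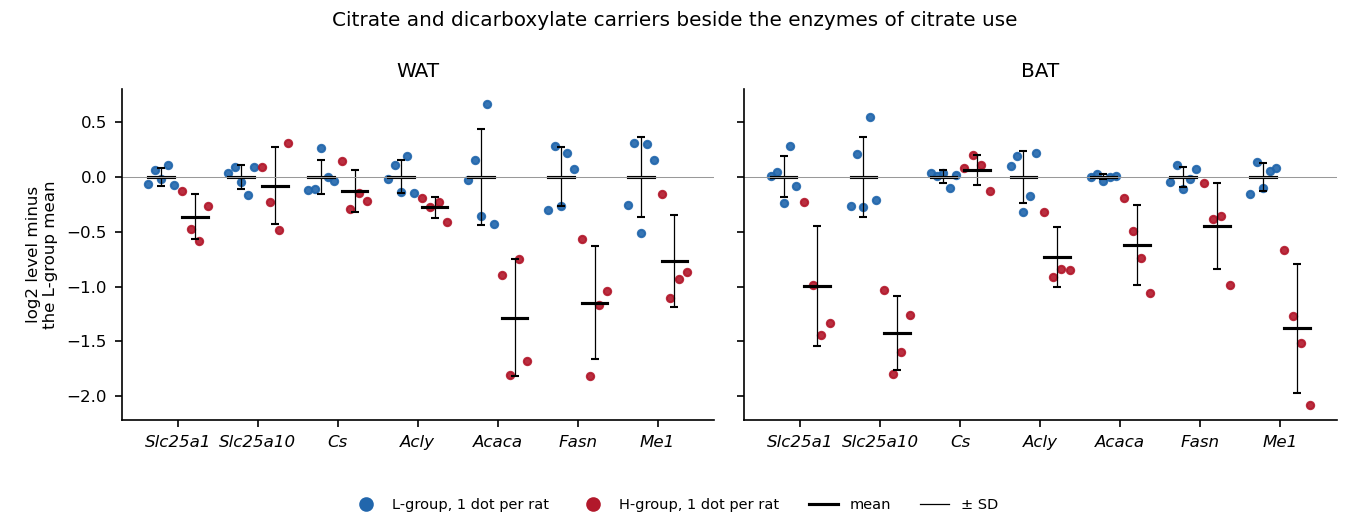
Log2 level minus the L-group mean (y axis) of *Slc25a1*, *Slc25a10* and 5 enzymes of citrate supply and use (x axis) in WAT and BAT, with 1 dot per rat, the mean as a thick bar and the SD as a thin bar. In BAT the *Slc25a10* H rats sit between 6.26 and 7.01 in absolute level and all below the L rats, and in WAT the H rats of *Slc25a10* spread on both sides of 0.

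The adenine nucleotide and phosphate carriers numbered 8, with 8 measured in liver, 4 in WAT and 7 in BAT. *Slc25a3* is the phosphate carrier, *Slc25a4*, *Slc25a5* and *Slc25a31* exchange ADP for ATP, and *Slc25a23*, *Slc25a24*, *Slc25a25* and *Slc25a41* carry ATP-Mg against phosphate. Rank products called 1 of 4 in WAT, where it called 10.1% of all genes with varying signal, and 0 in liver and BAT.

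*Slc25a25* fell in WAT. It read 7.86, 7.68, 7.71, 7.68 and 7.58 in the L rats and 7.24, 7.46, 7.74 and 7.46 in the H rats. H15 lay inside the L range and the other 3 H rats lay below it. The log2 fold change was -0.23 (SE 0.10), with an estimated false discovery rate of 0.046 and a limma adjusted p of 0.805. The call was lost with any 1 rat left out other than H15, and the value was -0.15 without H12. In liver the gene read 8.69 to 9.36 in L, 8.99 to 9.70 in M and 7.85 to 9.21 in H, where H12 held the lowest value. The M to H difference was -0.58 (SE 0.26), at an estimated false discovery rate of 0.0564, and passed when H15 or H16 was left out. Without H12 it was -0.29 and did not pass.

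In BAT, *Slc25a3* and *Slc25a4* each separated the diets without being called. *Slc25a3* read 12.93 to 13.10 in the L rats and 12.79, 12.57, 12.75 and 12.76 in the H rats, a log2 fold change of -0.32 (SE 0.06) with an estimated false discovery rate of 0.0665. It was called with H16 left out. *Slc25a4* ran the other way, from 11.63 to 11.89 in L to 11.93 to 12.17 in H, a difference of 0.23 (SE 0.07). Their limma adjusted p were 0.402 and 0.838. In liver *Slc25a3* differed by 0.03 (SE 0.07), and in WAT by -0.01 (SE 0.01). *Slc25a4* in liver read 6.38 to 6.54 in M and 6.07 to 6.36 in H, a log2 fold change of -0.20 (SE 0.07) without overlap, and L lay between at 6.22 to 6.48.

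For *Slc25a3*, the BAT difference minus the liver difference was -0.35 (SE 0.07), with a limma adjusted p of 0.0508 and 0.161 with the rat as a block. For *Slc25a4* it was 0.34 (SE 0.10), with an adjusted p of 0.217. *Slc25a23* had the smallest limma p of the group in liver from L to H, at 7.75 ± 0.15 (SD, n = 5) in L and 7.98 ± 0.20 (SD, n = 4) in H, a log2 fold change of 0.24 (SE 0.11) that was not called. Its other probe sets differed by -0.14 (SE 0.11) and 0.11 (SE 0.07), so their directions were split. Among 7 ATP synthase subunits, 0 were called in any tissue. Over all genes with varying signal, the shares called from L to H were 1.67% in liver, 10.1% in WAT and 3.88% in BAT. In BAT, 6 of the 7 had a higher mean in H, with *Atp5po* at 0.20 (SE 0.04) and without overlap. The other, *Atp5mc3*, had the largest difference of the list and was lower, at -0.34 (SE 0.20), with L at 11.95 to 12.65 and H at 11.68 to 12.44.

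The relatives of the uncoupling proteins within the Slc25 symbols were *Slc25a14*, *Slc25a27* and *Slc25a30*, brain and kidney forms first found by their likeness to *Ucp1*. *Slc25a30* gave the largest liver difference from L to H of the 40 genes. It read 10.69, 11.04, 10.35, 10.87 and 10.49 in L1 to L5 and 10.73, 10.38, 10.70 and 11.77 in M6, M8, M9 and M10. The H rats read 9.53, 9.85, 8.89 and 9.52. All 4 H rats lay below all 9 L and M rats, whose ranges overlapped each other.

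From L to H, *Slc25a30* in liver differed by -1.24 (SE 0.25) on the log2 scale, or 2.37-fold lower. From M to H the value was -1.45 (SE 0.27), or 2.73-fold lower, and from L to M it was 0.21 (SE 0.25). The first 2 comparisons were called with an estimated false discovery rate of 0, and they share the H rats. Their limma adjusted p were 0.165 and 0.208. A second *Slc25a30* probe set was also called, at -1.60 (SE 0.36) and -1.74 (SE 0.38). Both calls held with each rat left out in turn.

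In WAT, *Slc25a30* read 10.06, 10.11, 10.35, 10.51 and 10.18 in the L rats and 10.27, 9.60, 9.50 and 9.98 in the H rats. H12 lay inside the L range and the other 3 H rats below it. It was called lower at -0.40 (SE 0.18), with a limma adjusted p of 0.805, and the call was lost without L4. A second probe set read -0.19 (SE 0.15) and was not called.

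In BAT, *Slc25a30* read 8.12, 8.12, 8.86, 8.59 and 8.18 in the L rats and 8.10, 8.23, 8.01 and 6.05 in the H rats. H16 stood far below the rest, and the other 3 H rats lay near the lower L rats. The log2 fold change was -0.78 (SE 0.48), called by rank products, with a limma adjusted p of 0.970. Without H16 it was -0.26 and was not called, and the call was also lost without L3 or L4. *Slc25a25* in BAT was likewise lowest in H16, at 3.46 against 4.49 to 4.58 in the other H rats.

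*Slc25a27* in liver read 4.16 ± 0.23 (SD, n = 5) in L and 4.42 ± 0.15 (SD, n = 4) in H, a log2 fold change of 0.26 (SE 0.11) that was not called. Every rat was low for this gene, under the liver array medians of 4.67 to 4.70. Of 5 family relatives under other names, *Ucp1*, *Ucp2*, *Ucp3*, *Mtch1* and *Mtch2*, 0 were called in any tissue. Beside this stand 1.67% of all genes in liver, 10.1% in WAT and 3.88% in BAT, called from L to H. *Ucp1* in BAT had a log2 fold change of 0.20 (SE 0.08).

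**Figure D3:**
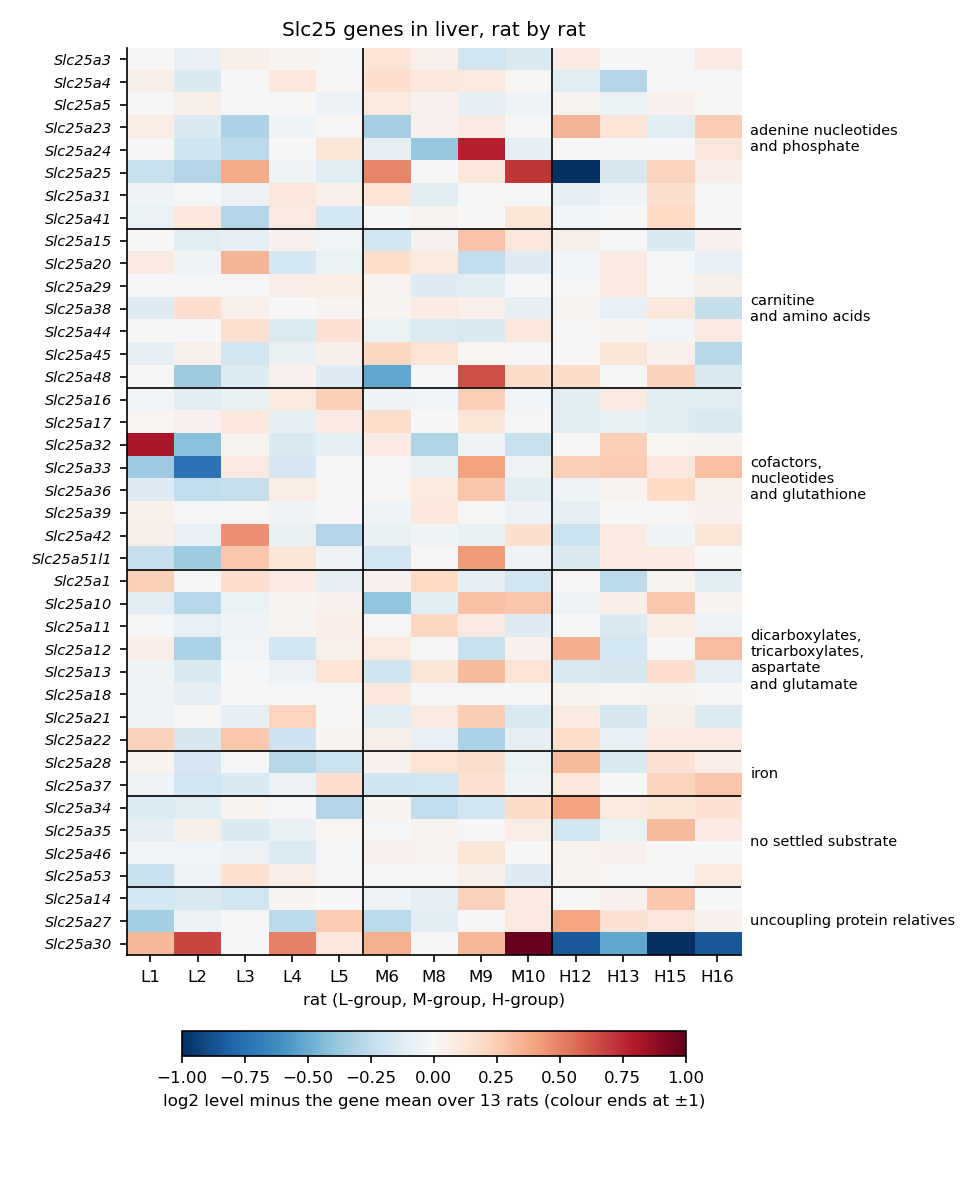
Log2 level of the 40 Slc25 genes in liver minus each gene's mean over 13 rats (colour, blue lower and red higher, ending at ±1), with rats in columns by diet and genes in rows by substrate. *Slc25a30* is blue in all 4 H rats, while 35 of the 40 genes had an SD between rats of one diet under 0.25.

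The carriers of cofactors, nucleotides and glutathione numbered 8, all measured in liver and BAT and 3 in WAT, and 0 were called. All genes with varying signal were called from L to H at shares of 1.67% in liver, 10.1% in WAT and 3.88% in BAT. *Slc25a33*, a pyrimidine nucleotide carrier, read 6.64, 6.27, 7.09, 6.83 and 7.01 in liver of the L rats and 7.24, 7.26, 7.11 and 7.30 in the H rats. The groups did not overlap but lay close, and the M rats, at 6.93 to 7.40, overlapped both. The log2 fold change from L to H was 0.46 (SE 0.15), with a limma adjusted p of 0.390 and an estimated false discovery rate of 0.0716, and it passed when L3 or L5 was left out. In BAT it was 0.42 (SE 0.17) higher on the log2 scale with overlap, and in WAT the difference was -0.01 (SE 0.09). *Slc25a17*, a peroxisomal carrier of coenzyme A and other cofactors, read 8.35 to 8.52 in M and 8.20 to 8.27 in H, a log2 fold change of -0.19 (SE 0.06), without overlap and not called.

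The carriers of carnitine and amino acids numbered 7, measured in liver in all 7, in WAT in 0 and in BAT in 5, and 0 were called. Called shares of all genes with varying signal from L to H were 1.67% in liver, 10.1% in WAT and 3.88% in BAT. *Slc25a20*, which brings acylcarnitines into the matrix for fatty acid oxidation, had the smallest limma p of the group in BAT, at 11.96 ± 0.06 (SD, n = 5) in L and 12.05 ± 0.05 (SD, n = 4) in H, a log2 fold change of 0.10 (SE 0.04). Of the 5 genes of the carnitine shuttle beside it, *Crot* in WAT was called higher, at 0.38 (SE 0.31), and none in liver or BAT by rank products. From L to H, the limma p was lowest for *Cpt1a* in liver, at 0.20 (SE 0.10), and for *Cpt1b* in BAT, at 0.07 (SE 0.03).

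Both iron carriers, *Slc25a28* and *Slc25a37* (mitoferrin 2 and 1), were higher in the H mean of liver, at 0.22 (SE 0.09) and 0.21 (SE 0.09), with overlap and without a call. *Slc25a37* was at the floor in BAT, and *Slc25a28* there was -0.31 (SE 0.19), or -0.17 without L1. Neither varied in WAT.

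Of the 4 genes without a settled substrate, *Slc25a34* and *Slc25a46* separated L from H in liver without being called. *Slc25a34* read 3.87 to 4.19 in L and 4.26 to 4.57 in H, a log2 fold change of 0.30 (SE 0.10), with M at 3.92 to 4.34. All these values were low, under the liver array medians of 4.67 to 4.70. *Slc25a46*, an outer membrane protein of mitochondrial shape, read 8.79 to 8.90 in L, 8.92 to 9.05 in M and 8.92 to 8.97 in H. Its difference was 0.10 (SE 0.05) from L to M and 0.07 (SE 0.05) from L to H, and the first was the only L to M difference of the 40 genes without overlap. In BAT it differed by 0.04 (SE 0.09). These values are of its brightest probe set. A second *Slc25a46* probe set in liver differed by 0.07 (SE 0.05) from L to M and by -0.02 (SE 0.05) from L to H, with overlap in both.

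*Slc25a34* was called higher in BAT, at an estimated false discovery rate of 0.0276, on values that fell into high and low rats in both diets. It read 5.74, 2.51, 4.81, 2.51 and 2.29 in the L rats and 6.28, 2.53, 2.57 and 4.58 in the H rats, and the lowest value of the tissue's scale was 2.29. The log2 fold change was 0.42 (SE 1.11), with a limma adjusted p that rounded to 1. Without H12 it turned to -0.35, and the call was lost without L2, L4, L5, H12 or H16. Its SD between rats of one diet was 1.68, the largest of the Slc25 genes in BAT.

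**Figure D4:**
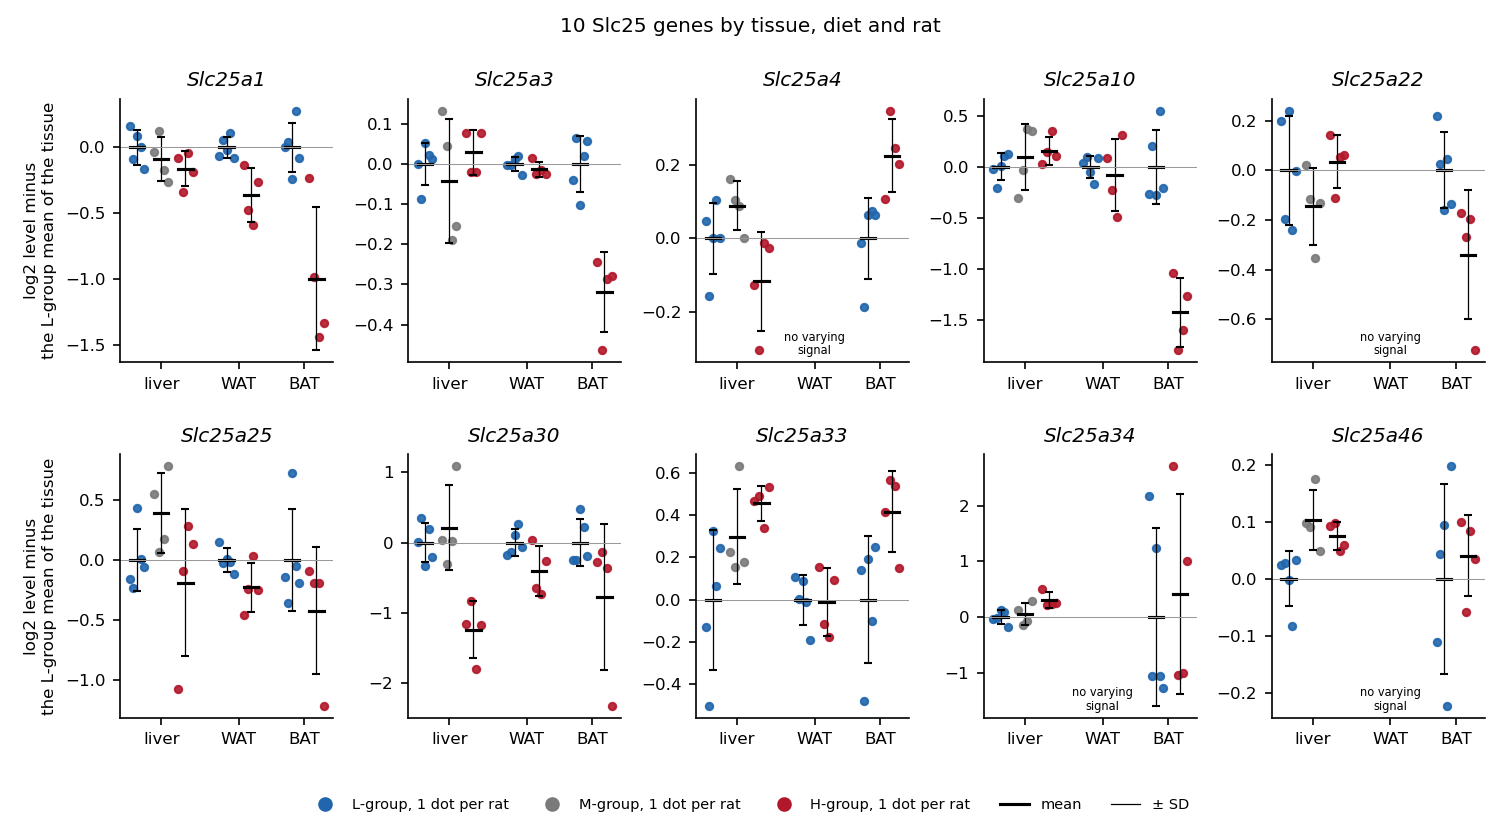
Log2 level minus the L-group mean of the same tissue (y axis, its range differs by gene) for 10 Slc25 genes in liver, WAT and BAT (x axis), with 1 dot per rat coloured by diet, the mean as a thick bar and the SD as a thin bar. The *Slc25a30* H rats lie lowest in liver, the *Slc25a10* H rats lie lowest in BAT, and *Slc25a34* in BAT has high and low rats in both diets.

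Other genes of the system were read from lists of fixed membership. For these lists and those of the next paragraph, the shares of all genes with varying signal called from L to H apply. They were 1.67% in liver, 10.1% in WAT and 3.88% in BAT. In liver, 0.478% were called from L to M and 0.943% from M to H. Of 7 other inner membrane carriers and channels, *Mpc1*, a subunit of the pyruvate carrier, was called lower in WAT, at -0.67 (SE 0.19). It was not called in liver, at -0.20 (SE 0.06), or in BAT, at -0.32 (SE 0.07), and in those tissues the L and H rats did not overlap. Of 6 genes of the malate-aspartate and glycerophosphate shuttles, *Gpd1* was called lower in WAT, at -0.37 (SE 0.15). *Gpd2* in liver was called lower from L to M, at -0.61 (SE 0.25), and higher from M to H, at 0.69 (SE 0.26), comparisons that share the M rats.

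Of 7 regulators of mitochondrial genes, *Ppargc1b*, a coactivator of mitochondrial gene transcription, was called higher in liver, at 0.52 (SE 0.19), and in BAT, at 0.75 (SE 0.11). *Ppara*, the fatty acid receptor of oxidative genes, was called higher in BAT, at 0.70 (SE 0.33). It read 5.06 and 4.23 in H13 and H15, the rats with raised skeletal muscle markers. H12 and H16, at 3.80 and 3.70, lay near the highest of the L rats, which read 3.03 to 3.80. The part of muscle in this was not tested. In WAT *Ppargc1b* was not called and *Ppara* held a constant value. No gene was called by rank products in any comparison from the lists of the urea cycle (5 genes), the outer membrane channels (3) and the machinery that imports carriers (5). In those lists the smallest limma p from L to H belonged to *Tomm70* in liver, at 0.23 (SE 0.06), and its rats did not overlap.

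Markers of other cell types moved with diet in BAT, where rank products called 3.88% of all genes with varying signal. Of 9 skeletal muscle markers, 8 varied, all 8 had a higher H mean and 6 were called higher. The log2 of their summed level was 7.05 to 7.61 in L and 7.52 to 10.52 in H. *Acta1* and *Tnnt3* were at 2.29, the floor, in every BAT array except H13 and H15, where *Acta1* read 7.55 and 9.13. Of 4 smooth muscle markers, 3 were called lower, and the log2 of their sum was 9.11 to 9.91 in L and 8.60 to 9.06 in H. *Slc25a10* read 7.01 and 6.79 in H12 and H16, the H rats without raised skeletal muscle markers, below all L rats. With the BAT arrays of H13 and H15 left out, *Slc25a1*, *Slc25a10* and *Slc25a30* were called and *Slc25a34* was not, and *Slc25a10* was at -1.15 on the log2 scale. The *Slc25a30* values then left in the H-group were 8.10 in H12 and 6.05 in H16. Of 5 brown adipocyte markers, 4 varied, all 4 had a higher H mean, and *Cox8b* was called higher at 0.63 (SE 0.07) without overlap. The log2 of the sum of the 5 was 15.8 to 16.03 in L and 16.1 to 16.2 in H. Of 3 endothelial markers, *Kdr* was called higher at 0.71 (SE 0.18) without overlap, and the other two differed by -0.04 (SE 0.05) and -0.09 (SE 0.06). Of 5 macrophage markers, *Cd68* was called higher at 0.74 (SE 0.32) and *Cd14* lower at -0.94 (SE 0.46). Of 5 adipocyte markers, *Lep* was called lower at -0.80 (SE 0.28). No hepatocyte, lymphocyte or erythroid marker was called in BAT. Leaving out H13 and H15 keeps only H12 and H16 in the H-group, which cannot settle the part of skeletal muscle. The part of the other markers was not tested.

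In WAT, 2 of 5 adipocyte markers varied, with *Adipoq* called lower at -0.13 (SE 0.02) and *Lep* called higher at 0.42 (SE 0.38). Of 5 macrophage markers, 4 had a higher H mean and *Cd68* was called higher at 0.50 (SE 0.21), and the log2 of their sum was 12.86 to 13.33 in L and 13.15 to 13.49 in H. *Alb* of hepatocytes was called higher at 0.56 (SE 1.16) and *Alas2* of erythroid cells lower at -0.16 (SE 0.43). No other marker was called there, and no skeletal muscle marker varied. Of all WAT genes with varying signal, 10.1% were called. In liver, 2 of 44 markers were called from L to H, as were 1.67% of all genes. One was *Cd14*, called lower at -0.63 (SE 0.26), while 3 of the 5 macrophage markers had a higher H mean and the log2 of the sum of the 5 was 11.03 to 11.4 in L and 10.9 to 11.2 in H. The other was *Cidea* of brown adipocytes, called higher at 0.48 (SE 0.46). The part of these markers in the Slc25 results was not tested. In whole tissue, fewer cells of a type and less RNA per cell cannot be told apart.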

How the data were processed

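RNA of liver, WAT and BAT was hybridised to Affymetrix GeneChip arrays for the rat genome, with 31 arrays in all and 1 for each rat and tissue. Per the labels and methods, the authors deposited log2 values summarised and normalised per tissue, by RMA in liver, qFARMS in WAT and GCRMA in BAT. qFARMS sets probe sets it takes as uninformative to a constant, and GCRMA pulls low signals to a floor, so genes drop out of both tissues and fold sizes are not comparable between methods. Control probe sets (57) were left out, and no value was changed. Of the other 31042, those with 1 gene symbol in the platform annotation were used, and Slc25 symbols were matched in RefSeq for 40 of 40 genes.

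A gene was left out of a tissue when its range was under 1e-06 (WAT, BAT) or all values were within 0.1 of the floor (BAT). Rank products over all array pairs (Python 3.11.15, 100 permutations) gave the calls. limma 3.58.1 in R 4.3.3 gave fold changes, standard errors and adjusted p, with all 3 diets in the liver fit. Both were tested on values simulated from liver, with large changes given to probe sets of below-median spread. They recovered those probe sets, and rank products also called more unchanged probe sets than limma did, all of them of high spread between rats. Recovery of smaller changes, of high-spread genes or in WAT and BAT values was not tested. The difference between tissues was fitted over 18 arrays, without and with the rat as a block. The same rat gave each tissue, and deviations of the same rat from its diet mean correlated at 0.0463 to 0.191 between liver and BAT, 0.167 to 0.351 between liver and WAT and 0.143 to 0.497 between WAT and BAT (9 rats each).

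Genes named with values were those called in any comparison, up to 3 per tissue and direction with the largest difference without overlap, and up to 2 per group with the smallest limma p. Of 57 pathway genes listed, 55 were on the array under their own symbol, and of 47 marker genes, 44. The members and lists were chosen with earlier results of these data known. Motifs were searched in RefSeq promoters (GRCr8), which held 8 of the 10 named genes. Alternatives were another test, threshold, filter, centring, probe set rule, array weights, a muscle covariate and each rat left out. Leaving out the BAT arrays of H13 and H15, fitting the varying WAT probe sets alone, and using the muscle covariate for single genes were chosen after seeing the data. Rats are the replicates, and 4 or 5 per group limits the precision.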

Additional observations from a re-analysis of the deposited data

Results flagged for a closer look

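5 values of the 10 Slc25 genes described rat by rat stood apart from the rest of their group of 4 or 5 rats, of 62 groups looked at, and chance alone gives about 1 in 20. Each is given with its gap to the nearest rat as a share of the group's range. In BAT, *Slc25a25* in L3 was 5.402 against 4.32 to 4.63 (gap 0.715), and in H16 it was 3.46 against 4.49 to 4.58 (gap 0.916). *Slc25a30* in H16 was 6.05 against 8.01 to 8.23 (gap 0.897). In liver, *Slc25a33* in M9 was 7.40 against 6.93 to 6.99 (gap 0.857), and *Slc25a34* in H12 was 4.57 against 4.26 to 4.31 (gap 0.851).

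The L to H differences of *Slc25a10* in BAT and in liver were -1.58 apart on the log2 scale in the limma test of the difference itself. The limma adjusted p was 0.0120, and with the rat as a block it was 0.0755 and did not pass. Liver and BAT were normalised by different methods.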

How the results depend on the processing

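The rank products counts of 1 (liver M to H), 1 (liver L to H), 3 (WAT) and 4 (BAT) were 0, 0, 0 and 0 with limma in their place, and with 1 rat left out they ranged from 1 to 2, 1 to 2, 1 to 3 and 2 to 5. The 5 in BAT, without H12, added *Slc25a16* and *Slc25a24*. The liver L to M count was 0 under each alternative run. At an unadjusted p under 0.01 in place of the adjusted p, the limma counts of 0 became 2, 3, 1 and 3 for the same 4 comparisons, where 1.46%, 2.41%, 2.42% and 2.95% of all genes with varying signal passed, and stayed 0 from L to M, where 0.528% did. The count of genes whose difference differed between liver and BAT was 1, and became 0 with the rat as a replicate block (paired), 4 at an unadjusted p under 0.01 (4.71% of genes), 2 with arrays centred on their median, and 1 to 2 with 1 rat left out. The second gene under centring was *Slc25a3*. Between liver and WAT and between WAT and BAT the count of 0 became 1 and 2 at an unadjusted p under 0.01 (3.11% and 3.5% of genes) and was 0 with the block. The block changed no other call. These counts took only Slc25 genes with varying signal in both tissues, at most 11 where WAT was compared. *Slc25a34* in BAT turned from 0.42 to -0.21 with array weights, and ranged from -0.35 (without H12) to 0.96 with 1 rat left out. Of 18 gene differences called or without overlap, the other 246 values under an alternative kept their direction and stayed above an adjusted p of 0.05. The causes of these changes were not tested. Fits with 4 against 5 rats, the constant values of WAT and the floor of BAT limit what could be seen.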

Other observations

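Among the 4 H rats, H12 was the highest for *Slc25a1* in WAT (9.84) and in BAT (11.07) and for *Slc25a10* in BAT (7.01). It was also the highest of the 4 in BAT for *Acly* (12.77), *Acaca* (12.90), *Fasn* (15.13) and *Me1* (12.50). In liver, H12 was the lowest of all 13 rats for *Slc25a25* (7.85).

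Of the 12 genes with over 1 probe set, 2 had a further probe set in liver that separated L from H where the brightest did not. Over all genes, each by its brightest probe set, 3.44% were without overlap in that comparison. For *Slc25a15*, the ornithine carrier of the urea cycle, the log2 fold change was 0.02 for the brightest and -0.31 to 0.08 for the others, and the one at -0.31 had no overlap. For *Slc25a27* it was 0.26 for the brightest, and 0.25 without overlap and 0.07 with overlap for the others. All these *Slc25a27* probe sets read under the liver array medians of 4.67 to 4.70.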
